A study of Mus musculus with 9 samples.

Results

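The SNARE proteins and the regulators of exocytosis that act with them were described in 3 myeloid cell populations of normal mouse bone marrow. Members were taken by gene symbol: every syntaxin (Stx), syntaxin-binding protein (Stxbp), vesicle-associated membrane protein (Vamp) and synaptosomal-associated protein (Snap) followed by a digit, together with Napa, Napg, Nsf, Unc13d, Sytl1 and Ykt6. This gave 38 of the 18193 genes on the arrays, each read from its brightest probe set that names a single gene. Snap91 entered by its symbol, but it encodes a clathrin assembly protein and is no SNARE. The neutrophils were c-kit- Gr1+ Mac1+ cells, the MAC1+ myeloblasts c-kit+ Gr1+ Mac1+ cells, and the MAC1- myeloblasts c-kit+ Gr1+ cells with low or no Mac1. Both myeloblast populations were also sorted for absence of lymphoid and erythroid lineage antigens, after magnetic separation by c-kit. All cells came from untreated C57BL/6 mice, male or female, aged 4 to 10 weeks, with 3 arrays per population and 9 in all. Whether the replicates are separate animals is not stated in the labels, and a p-value here therefore reflects the spread of these arrays alone, part of which may be technical.

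SNAREs are membrane-anchored proteins whose coiled motifs zip together between a vesicle and its target membrane and so drive fusion. The vesicle usually brings an R-SNARE (a Vamp), and the target membrane brings Q-SNAREs (syntaxins and Snap proteins). Sec1/Munc18 (SM) proteins and Munc13 priming factors guide assembly. The ATPase Nsf with its adaptors Napa and Napg takes used complexes apart. Neutrophils store antimicrobial proteins in several granule classes, made one after another during maturation in the marrow, and release them by such fusion.

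Transcripts of the sorted antigens followed the labels. Kit lay between 94.9 and 331 in neutrophils, between 3176 and 3470 in MAC1+ myeloblasts and between 2998 and 3228 in MAC1- myeloblasts, and Itgam, the alpha chain of Mac1, between 2027 and 3675 in neutrophils, 695 and 920 in MAC1+ myeloblasts, and 69.2 and 74.1 in MAC1- myeloblasts. Intensities are linear array values, and their number limits the precision. Neutrophil array 1 stood apart from neutrophil arrays 2 and 3: its 18S rRNA control read 10269, against 1463 to 3894 on the other 8 arrays, and Mpo, an early granule gene, read 7132, against 1712 and 778 on neutrophil arrays 2 and 3. It differed from the mean of arrays 2 and 3 by over 1 on the log2 scale for 8 of 38 members (21.1%) and for 24.6% of all genes. The markers of monocytes and macrophages (9 of 10 measured) summed to between 15616 and 22753 in neutrophils, 3880 and 4868 in MAC1+ myeloblasts, and 42688 and 45907 in MAC1- myeloblasts. Of these 9 markers, 8 were called lower in MAC1+ than in MAC1- myeloblasts, Cx3cr1 read between 214 and 238 in the MAC1- cells, and their part in the results below was not tested.

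Differences are given on the scale of log2(intensity + 16) ± standard error, which understates those of dim genes. A gene was called when limma's p-value, adjusted over all 18193 genes, was under 0.05. In MAC1+ against MAC1- myeloblasts 8 of 38 members (21.1%) were higher, where 6.31% of all genes were, and 2 (5.26%) were lower, where 5.60% of all genes were. In neutrophils against MAC1+ myeloblasts 12 members (31.6%) were higher, against 20.0% of all genes, and 6 (15.8%) were lower, against 28.5% of all genes. In neutrophils against MAC1- myeloblasts 15 members (39.5%) were higher, against 22.8% of all genes, and 6 (15.8%) were lower, against 30.2% of all genes. The shares of all genes rose once dim ones, below a cut at the 40th percentile, were dropped, which kept 34 members. Of these, 9, 10 and 15 were higher in these comparisons, in the order given, against 13.3%, 25.1% and 29% of the genes kept. Lower were 2, 6 and 6 members, against 10.3%, 46.6% and 47.1% of those genes. The shares of members and of all genes were not tested against each other.

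The median difference over the 38 members was 0.12, 0.20 and 0.36 in these comparisons, in the same order, and over all genes it was -0.01, 0.05 and 0.05. With each array centred on its median, 8 members were higher and 8 lower in neutrophils against MAC1+ myeloblasts, and with quantile normalization 16 were higher and 5 lower. Of all genes, 2831 were higher and 5714 lower with centring, and 3798 higher and 4872 lower with quantile normalization. Centring moved the median of all genes in that comparison to -0.15. Without neutrophil array 1, 15, 25 and 29 members were called, and all 10, 18 and 21 calls made with it were among them. Of all genes 23.0%, 54.2% and 58.6% were called without that array, against 11.9%, 48.5% and 53.0% with it. Values without it are given below where the call of a named member changed.

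**Figure D1:**
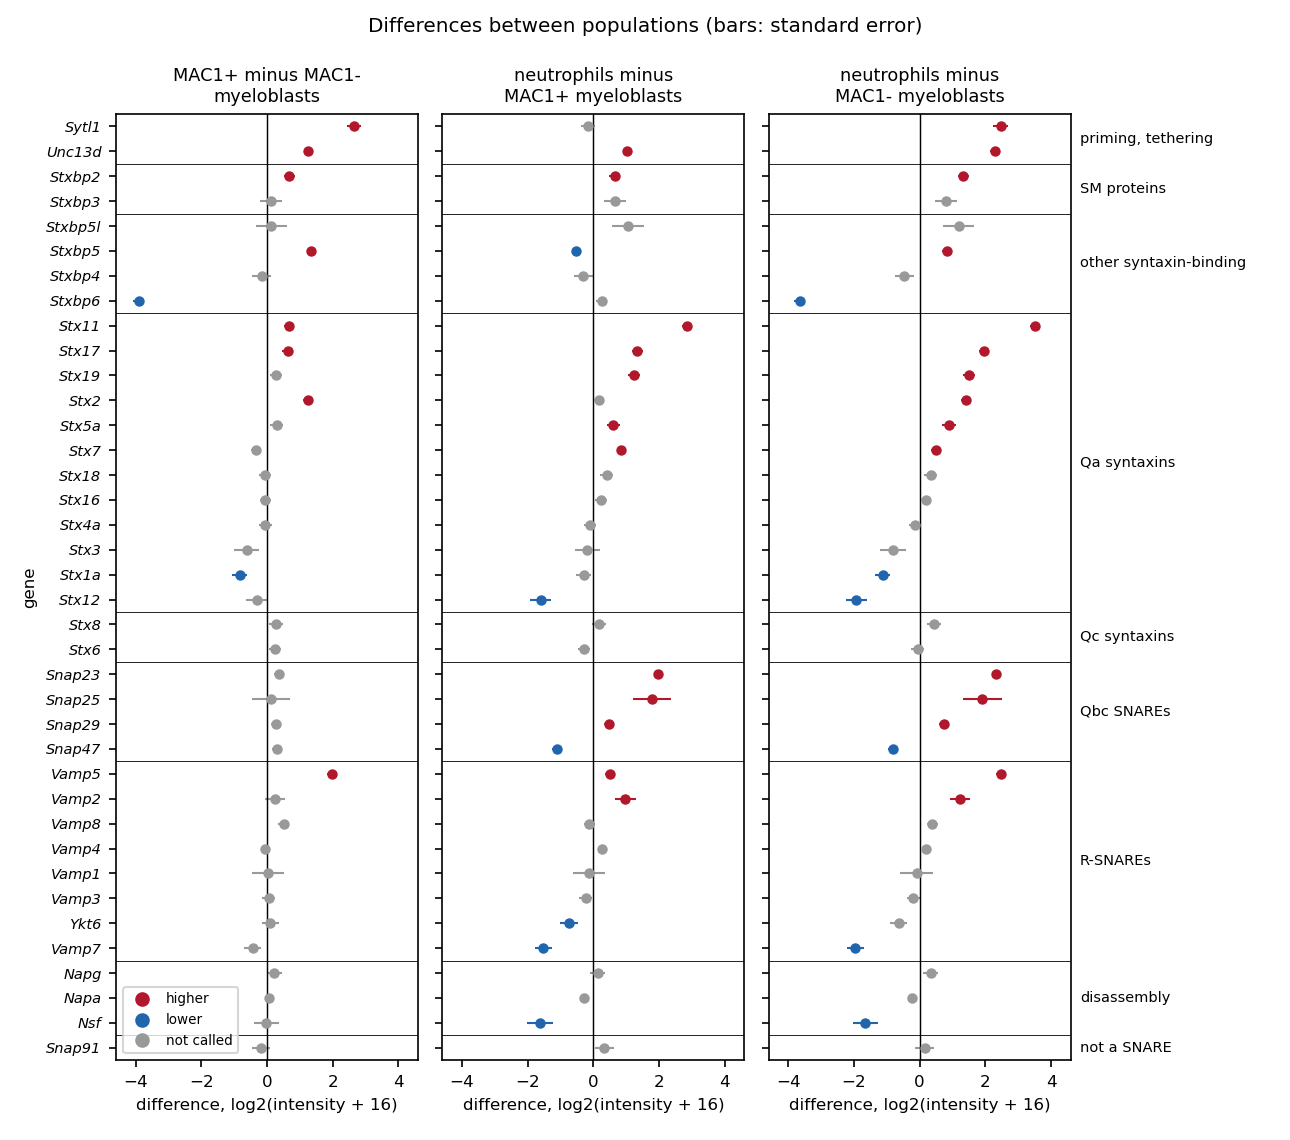
Difference of each of the 38 members on the log2(intensity + 16) scale (horizontal axis), with the standard error as a bar, in MAC1+ minus MAC1- myeloblasts (left), neutrophils minus MAC1+ myeloblasts (middle) and neutrophils minus MAC1- myeloblasts (right). Members are grouped by role, red points are called higher and blue points called lower. Stxbp6 lies farthest to the left in the first panel (-3.91) and Stx11 farthest to the right in the second (2.85).

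By the calls of both steps, 5 members (Stx11, Stx17, Stxbp2, Unc13d, Vamp5) were higher in MAC1+ than in MAC1- myeloblasts and higher again in neutrophils than in MAC1+ myeloblasts. Another 7 (Snap23, Snap25, Snap29, Stx19, Stx5a, Stx7, Vamp2) were called higher in neutrophils against MAC1+ myeloblasts and were not called between the myeloblasts. Stx2 and Sytl1 were called higher between the myeloblasts and not in neutrophils against MAC1+ myeloblasts, and Stx1a and Stxbp6 were called lower in the same way. Lower in neutrophils than in MAC1+ myeloblasts, with no call between the myeloblasts, were 5 members (Nsf, Snap47, Stx12, Vamp7, Ykt6). Stxbp5 alone was higher in MAC1+ than in MAC1- myeloblasts and lower in neutrophils than in MAC1+ myeloblasts. No call was made in any of the 3 comparisons for 16 members. How many of all genes show each of these patterns was not counted, so the pattern counts describe the members only. The plot of all members by array shows these patterns side by side.

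**Figure D2:**
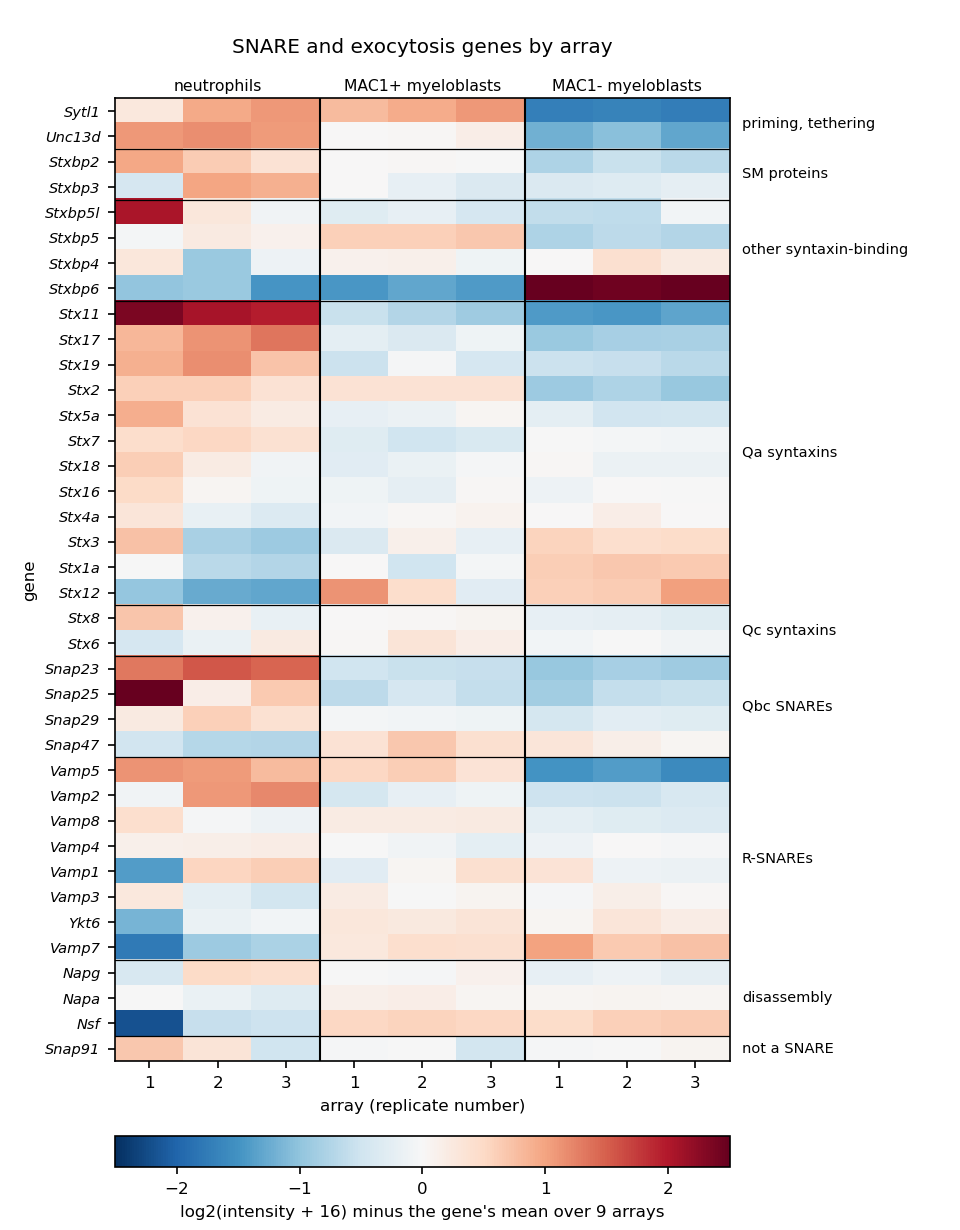
Level of each of the 38 members (rows, grouped by role) on each of the 9 arrays (columns, neutrophils left, MAC1+ myeloblasts in the middle, MAC1- myeloblasts right), as log2(intensity + 16) minus the gene's own mean over 9 arrays. Colours stop at 2.5 in either direction. Stx11 and Snap23 are red across the 3 neutrophil arrays, Stxbp6 across the 3 MAC1- arrays, and Nsf, Vamp1, Stx3 and Snap25 differ between neutrophil array 1 and the other 2.

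The promoters of 4 members are shown next: Sytl1 and Vamp5, the members with the largest positive difference between the myeloblasts, Stx11, with the largest positive difference in neutrophils, and Vamp8, called in no comparison, whose gene is the next protein-coding gene to Vamp5 on chromosome 6. Each is the RefSeq window of GRCm38.p6 from 250 bases before to 50 after the gene's start, on the minus strand, at chr4:133263038-133263337 (Sytl1), chr10:12964210-12964509 (Stx11), chr6:72380419-72380718 (Vamp5) and chr6:72390618-72390917 (Vamp8). Capitals mark matches to the motifs searched.
Sytl1: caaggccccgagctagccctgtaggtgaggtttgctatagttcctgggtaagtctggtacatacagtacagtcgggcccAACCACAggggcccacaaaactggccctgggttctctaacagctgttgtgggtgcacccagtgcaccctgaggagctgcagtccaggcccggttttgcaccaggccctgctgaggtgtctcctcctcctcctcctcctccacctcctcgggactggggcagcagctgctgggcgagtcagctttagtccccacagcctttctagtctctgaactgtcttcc
Stx11: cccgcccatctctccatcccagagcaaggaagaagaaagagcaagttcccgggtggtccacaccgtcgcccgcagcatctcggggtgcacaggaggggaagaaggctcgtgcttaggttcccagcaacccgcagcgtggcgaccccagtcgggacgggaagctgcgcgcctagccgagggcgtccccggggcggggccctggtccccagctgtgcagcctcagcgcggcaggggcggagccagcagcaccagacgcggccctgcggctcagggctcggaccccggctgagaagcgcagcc
Vamp5: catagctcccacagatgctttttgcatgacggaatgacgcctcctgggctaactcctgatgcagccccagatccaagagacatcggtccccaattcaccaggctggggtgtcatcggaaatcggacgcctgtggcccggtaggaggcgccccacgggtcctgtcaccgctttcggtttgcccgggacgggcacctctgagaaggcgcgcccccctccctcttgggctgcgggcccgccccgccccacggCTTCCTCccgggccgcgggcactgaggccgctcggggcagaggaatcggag
Vamp8: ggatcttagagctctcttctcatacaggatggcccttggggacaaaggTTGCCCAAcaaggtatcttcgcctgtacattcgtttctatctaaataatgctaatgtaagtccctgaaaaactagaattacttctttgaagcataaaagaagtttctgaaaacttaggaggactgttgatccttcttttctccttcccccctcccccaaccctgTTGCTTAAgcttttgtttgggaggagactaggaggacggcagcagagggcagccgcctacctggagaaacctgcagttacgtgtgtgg

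Motifs were searched on both strands: GAGGAAG (PU.1), TTGCNNAA (C/EBP), CACGTG (E-box), GCGGGAA (E2F) and TGTGGTT (RUNX). Sytl1 held a RUNX match that begins 171 bases before the start, Vamp5 a PU.1 match that begins 1 base before it, and Vamp8 C/EBP matches 202 and 38 bases before it. Stx11 held none of these letters in its window. A window was given for 32 of the 38 members, 37 windows in all. PU.1 letters were in 13.5% of the members' windows and 13.6% of all 32851 windows, C/EBP letters in 13.5% of the members' and 10.8% of all windows, and E-box letters in 13.5% of the members' and 7.2% of all windows. E2F letters were in 2.7% of the members' and 4.6% of all windows, and RUNX letters in 8.1% of the members' and 5.3% of all windows. A match is a description of letters, not of a bound site.

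The priming factor Unc13d and the tether Sytl1 were both higher in MAC1+ than in MAC1- myeloblasts, and they parted in neutrophils. Unc13d (Munc13-4) primes granules for fusion and binds Rab27a. It read 2510, 2658 and 2479 in neutrophils, 1188, 1192 and 1324 in MAC1+ myeloblasts, and 500.4, 561 and 468 in MAC1- myeloblasts. No population overlapped another, with a difference of 1.04 ± 0.13 for neutrophils against MAC1+ myeloblasts (adjusted p = 0.000169) and 1.25 ± 0.13 for MAC1+ against MAC1- myeloblasts (adjusted p = 0.000344). Sytl1 (also JFC1), a Rab27a effector that links granules to the plasma membrane, read 489.9, 803 and 881 in neutrophils, 721, 789 and 877 in MAC1+ myeloblasts, and 114, 117 and 112 in MAC1- myeloblasts. It was 6.22-fold higher in MAC1+ than in MAC1- myeloblasts (2.64 ± 0.22, adjusted p = 7.3e-05), the largest positive difference among members in that comparison. Neutrophils and MAC1+ myeloblasts overlapped for Sytl1 (-0.17 ± 0.22, adjusted p = 0.547). In bulk samples like these, fewer cells expressing a gene and less RNA per cell cannot be told apart.

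Of the SM proteins, which clasp syntaxins and their complexes, Stxbp2 (Munc18-2) was higher at both steps. Stxbp2 read 4897, 3888 and 3223 in neutrophils, 2507, 2532 and 2482 in MAC1+ myeloblasts, and 1452, 1690 and 1550 in MAC1- myeloblasts. The populations did not overlap (0.65 ± 0.17 for neutrophils against MAC1+ myeloblasts, adjusted p = 0.0119; 0.68 ± 0.17 for MAC1+ against MAC1- myeloblasts, adjusted p = 0.0341). The call between the myeloblasts was lost without any single one of the 6 myeloblast arrays (adjusted p from 0.0822 to 0.13). It was also lost on a probe set not marked as able to bind several transcripts (0.52, adjusted p = 0.0525). A further probe set, so marked, was called in the fit of every probe set (0.73 ± 0.16, adjusted p = 0.0258). Stxbp3 (Munc18-3), which pairs with the plasma-membrane syntaxin Stx4, read 1115, 2948 and 2790 in neutrophils, 1502, 1298 and 1150 in MAC1+ myeloblasts, and 1160, 1192 and 1265 in MAC1- myeloblasts. Neutrophil array 1 lay below every other array and arrays 2 and 3 above them, and Stxbp3 was not called (0.67 ± 0.34 for neutrophils against MAC1+ myeloblasts, adjusted p = 0.132). Without neutrophil array 1 the difference was 1.12 (adjusted p = 0.000145) against MAC1+ and 1.24 (adjusted p = 6.57e-05) against MAC1- myeloblasts.

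The other syntaxin-binding proteins held the largest negative difference of the family. Stxbp6 (amisyn), which carries an R-SNARE-like motif without a membrane anchor and is known to hold back fusion in secretory cells, read 59.7, 62.9 and 38.1 in neutrophils, 38.8, 45.0 and 40.5 in MAC1+ myeloblasts, and 889.5, 794 and 856 in MAC1- myeloblasts. It was lower in MAC1+ than in MAC1- myeloblasts (-3.91 ± 0.17, adjusted p = 2.97e-06). The MAC1+ values lay near the median intensity of those arrays, 39.1 to 42.0, so the size of this difference depends on the 16 added before the logarithm and no fold is given. Neutrophils and MAC1+ myeloblasts overlapped at a level near the dim end of the scale. The other Stxbp6 probe set also fell between the myeloblasts (-2.78 ± 0.25, adjusted p = 0.000179 in the fit of every probe set).

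Stxbp5 (tomosyn), another R-SNARE-like protein that competes with Vamps for syntaxins, peaked in MAC1+ myeloblasts. It read 2977, 3600.2 and 3326 in neutrophils, 4671, 4644 and 4881 in MAC1+ myeloblasts, and 1794, 1938 and 1846 in MAC1- myeloblasts, with no overlap. The difference was -0.52 ± 0.13 for neutrophils against MAC1+ myeloblasts (adjusted p = 0.00963) and 1.34 ± 0.13 for MAC1+ against MAC1- myeloblasts (adjusted p = 0.000202). The first of these was -0.33 (adjusted p = 0.0774) with quantile normalization. Stxbp4 (synip) stayed under 100 on every array, and Stxbp5l (tomosyn-2) read 276 on neutrophil array 1 and between 30.0 and 70.9 on the other 8; neither was called. Without neutrophil array 1 they differed between neutrophils and MAC1- myeloblasts by -0.74 (Stxbp4, adjusted p = 0.026) and 0.54 (Stxbp5l, adjusted p = 0.0493), and without neutrophil array 3 Stxbp5l differed by 1.47 between neutrophils and MAC1+ myeloblasts (adjusted p = 0.0271).

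Among the 12 Qa-SNARE syntaxins, which sit on target membranes, 5 were called higher and 1 lower in neutrophils against MAC1+ myeloblasts, and 3 higher and 1 lower in MAC1+ against MAC1- myeloblasts. The shares of all genes were 20.0% higher and 28.5% lower in the first comparison, and 6.31% higher and 5.60% lower in the second. Stx11, a syntaxin held to membranes by lipids and prominent in immune cells, read 8916, 7279 and 6842 in neutrophils, 1177, 1043 and 925 in MAC1+ myeloblasts, and 640.1, 624 and 687 in MAC1- myeloblasts. It was 7.22-fold higher in neutrophils than in MAC1+ myeloblasts (2.85 ± 0.16, adjusted p = 7.47e-07) and 11.5-fold higher than in MAC1- myeloblasts (3.52 ± 0.16, adjusted p = 1.64e-07). These were the largest positive differences among members in both comparisons. Its step between the myeloblasts was smaller (0.67 ± 0.16, adjusted p = 0.0254) and was not called without MAC1+ array 1 or 2 or any of the MAC1- arrays (adjusted p from 0.0769 to 0.106).

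Stx17, the syntaxin of autophagosomes, read 1395, 1708 and 1984 in neutrophils, 655, 598 and 721 in MAC1+ myeloblasts, and 399, 428 and 435 in MAC1- myeloblasts. No population overlapped another. It was higher in neutrophils than in MAC1+ myeloblasts (1.33 ± 0.16, adjusted p = 0.000121), and its call between the myeloblasts (0.63 ± 0.16, adjusted p = 0.0392) was lost without neutrophil array 2 (adjusted p = 0.0559) or any myeloblast array (adjusted p from 0.0802 to 0.141). In humans, loss of UNC13D, STX11 or STXBP2 causes forms of familial haemophagocytic lymphohistiocytosis, a disorder of cytotoxic granule release. All 3 mouse genes were called higher at both steps, and this grouping was made after their values were seen. The calls of Stx11 and Stxbp2 between the myeloblasts were lost when single myeloblast arrays were left out, as given above.

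Stx2, a syntaxin of the plasma membrane, read 3347, 3341 and 2815 in neutrophils, 2824, 2813 and 2809.7 in MAC1+ myeloblasts, and 1167, 1275 and 1126 in MAC1- myeloblasts. It was 2.35-fold higher in MAC1+ than in MAC1- myeloblasts (1.23 ± 0.14, adjusted p = 0.000384), and neutrophils and MAC1+ myeloblasts overlapped. Stx7, a syntaxin of late endosomes, read 5237, 5518 and 5023 in neutrophils, 3153, 2720.0 and 2964 in MAC1+ myeloblasts, and 3823, 3726 and 3711 in MAC1- myeloblasts. Its lowest population was the MAC1+ myeloblasts: neutrophils were higher than these (0.83 ± 0.13, adjusted p = 0.000512), while MAC1+ and MAC1- myeloblasts differed by -0.35 ± 0.13 (adjusted p = 0.134, and 0.0401 without neutrophil array 1).

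Stx12, a syntaxin of recycling endosomes, was 3.03-fold lower in neutrophils than in MAC1+ myeloblasts (-1.60 ± 0.32, adjusted p = 0.0027). It read 922, 751 and 724 in neutrophils, 3956, 2482 and 1480 in MAC1+ myeloblasts, and 2737, 2827 and 3695 in MAC1- myeloblasts. The SD over the MAC1+ arrays, 0.71 on the log2 scale, was the largest of the 38 members in that population, and both myeloblast populations lay above all neutrophil arrays. The dimmer probe set of Stx12 gave -0.42 ± 0.18 (adjusted p = 0.0863). Stx1a, the syntaxin of synapses, was dim, at 61.9, 32.6 and 30.8 in neutrophils, 62.2, 39.3 and 59.5 in MAC1+ myeloblasts, and 104, 108 and 107 in MAC1- myeloblasts. Its call between the myeloblasts (-0.83 ± 0.23, adjusted p = 0.0461) was lost on a probe set not marked as able to bind several transcripts (-0.23, adjusted p = 0.708), without neutrophil array 2 (adjusted p = 0.0557) and without any single myeloblast array (adjusted p from 0.0807 to 0.171). Without neutrophil array 1, Stx1a differed by -0.53 in neutrophils against MAC1+ myeloblasts (adjusted p = 0.0226, and 0.315 with it).

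Stx3 and Stx4a, plasma-membrane syntaxins with known parts in granule release, were not called. Stx3 read 464, 149 and 139.7 in neutrophils, 212, 301 and 236 in MAC1+ myeloblasts, and 412, 372 and 386 in MAC1- myeloblasts. Neutrophil array 1 stood above every other array. Without it, neutrophils differed by -0.71 (adjusted p = 0.00431) from MAC1+ and by -1.34 (adjusted p = 9.13e-05) from MAC1- myeloblasts, and the MAC1+ cells by -0.63 from the MAC1- cells (adjusted p = 0.0125). Stx4a read 2868, 2024 and 1827 in neutrophils, 2196, 2359 and 2471 in MAC1+ myeloblasts, and 2324, 2614 and 2345 in MAC1- myeloblasts, and all populations overlapped. Without neutrophil array 1 its difference from MAC1- myeloblasts was -0.33 (adjusted p = 0.0401).

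The remaining Qa and Qc syntaxins serve the endoplasmic reticulum, the Golgi apparatus and endosomes, with the exception of Stx19, a syntaxin without a membrane-spanning segment. Stx5a, which serves traffic into the Golgi, was called higher in neutrophils than in MAC1+ myeloblasts (0.60 ± 0.20, adjusted p = 0.0334) and not without MAC1+ array 1 or 2 or MAC1- array 2 or 3 (adjusted p from 0.052 to 0.0968). The call was also lost with each array centred on its median (0.40, adjusted p = 0.0509) and on a probe set not marked as able to bind several transcripts (0.34, adjusted p = 0.273). Stx19 was called higher (1.25 ± 0.18, adjusted p = 0.000382) at intensities of 33.3 to 51.4 in neutrophils, against 4.9 to 13.6 in MAC1+ myeloblasts. Stx16, Stx18, Stx6 and Stx8 were called in no comparison on their brightest probe sets, with differences between -0.29 and 0.44. Without neutrophil array 3, neutrophils differed from MAC1+ myeloblasts by 0.57 for Stx18 (adjusted p = 0.0269) and by -0.47 for Stx6 (adjusted p = 0.0423), and from MAC1- myeloblasts by 0.64 for Stx8 (adjusted p = 0.021). In the fit of every probe set, however, 2 dimmer probe sets of Stx6 were called higher in neutrophils, by 1.20 ± 0.24 and 0.76 ± 0.24 against MAC1+ myeloblasts (adjusted p = 0.00321 and 0.0297) and by 1.59 ± 0.24 and 0.89 ± 0.24 against MAC1- myeloblasts (adjusted p = 0.000473 and 0.0136).

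Of the 4 Qbc-SNAREs, which bring a pair of helices to the complex, 3 were called higher and 1 lower in neutrophils against MAC1+ myeloblasts. In that comparison 20.0% of all genes were higher and 28.5% lower. None of the 4 was called between the myeloblasts, where 11.9% of all genes were. Snap23, the widely expressed partner of plasma-membrane syntaxins, read 4796, 5640.2 and 5259 in neutrophils, 1352, 1308 and 1275 in MAC1+ myeloblasts, and 987, 1073 and 1027 in MAC1- myeloblasts. It was 3.95-fold higher in neutrophils than in MAC1+ myeloblasts (1.98 ± 0.13, adjusted p = 1.95e-06), and its other probe sets gave 2.19 and 2.18. The myeloblast populations did not overlap for Snap23 (0.35 ± 0.13, adjusted p = 0.144, and 0.0311 without neutrophil array 1).

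Snap47, a relative of Snap25 without a lipid anchor, moved the other way. It read 399, 334 and 331 in neutrophils, 725, 898 and 739 in MAC1+ myeloblasts, and 690.3, 618 and 582 in MAC1- myeloblasts, and was lower in neutrophils than in MAC1+ myeloblasts (-1.11 ± 0.15, adjusted p = 0.000262). Against MAC1- myeloblasts it differed by -0.80 ± 0.15 (adjusted p = 0.00179), and by -0.47 (adjusted p = 0.161) on a probe set not marked as able to bind several transcripts. Snap25, the neuronal form, read 252, 24.3 and 40.9 in neutrophils, 7.0, 11.0 and 7.8 in MAC1+ myeloblasts, and 3.9, 7.8 and 8.5 in MAC1- myeloblasts. Neutrophil array 1 stood far above the rest, and the call against MAC1+ myeloblasts (1.79 ± 0.59, adjusted p = 0.0314) was lost without any single MAC1+ array (adjusted p from 0.0668 to 0.0809). Snap29, a partner of Stx17 on autophagosomes, was called higher in neutrophils than in MAC1+ myeloblasts (0.47 ± 0.14, adjusted p = 0.0219), and not without neutrophil array 2 or any MAC1+ array (adjusted p from 0.0502 to 0.0651).

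The plot of 12 members shows the arrays behind these calls. The larger step differs in place. It lies between the myeloblasts for Sytl1 and Vamp5, and between MAC1+ myeloblasts and neutrophils for Snap23 and Stx11. Vamp5 and Stx11 were also called at their smaller step. Unc13d and Stxbp2 stepped by similar amounts at both places.

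**Figure D3:**
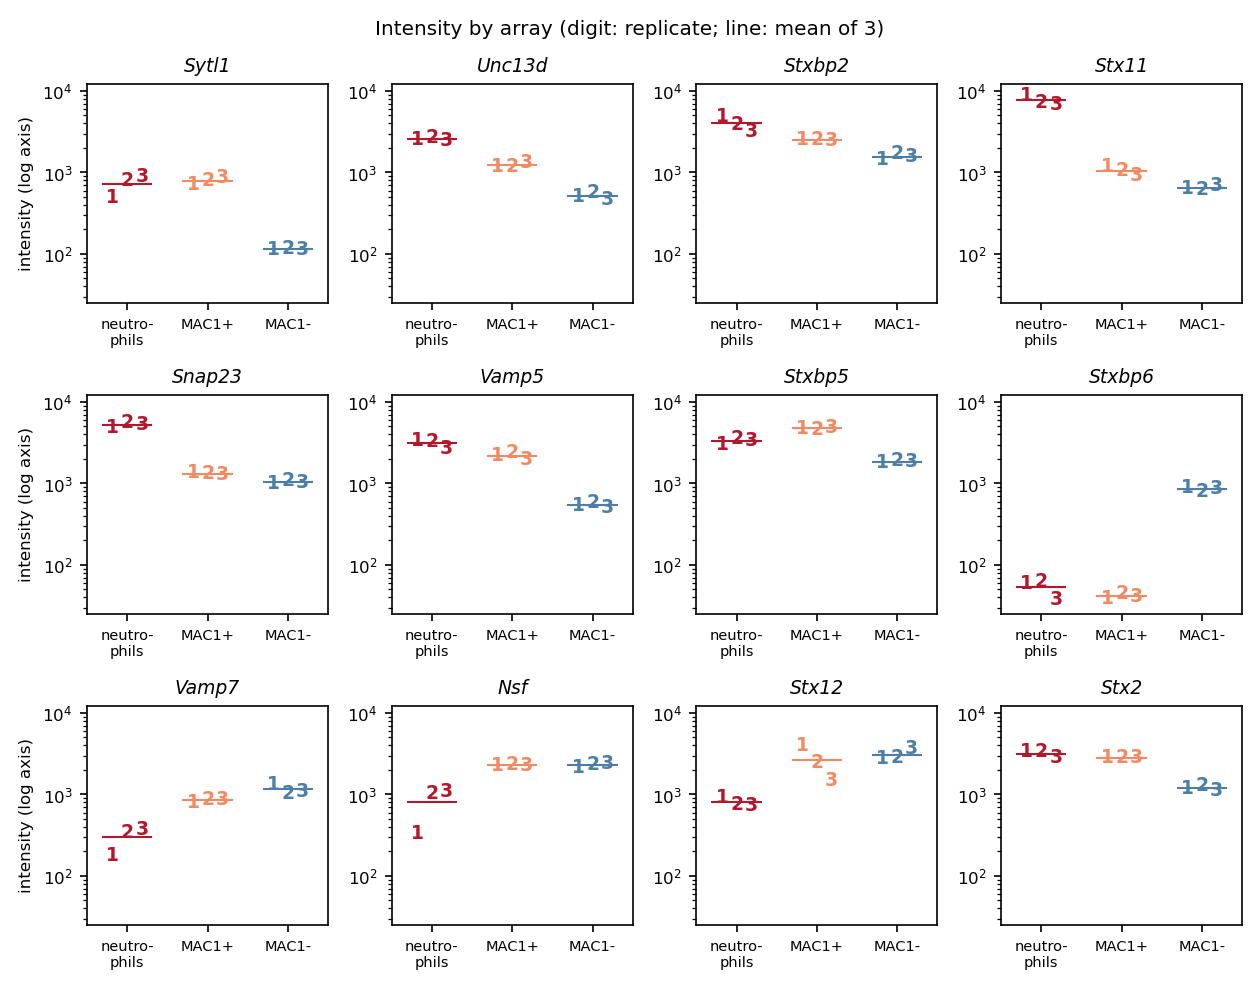
Intensity on each array (digit: replicate number) and mean of 3 arrays (line) for 12 members on a log axis, with neutrophils left, MAC1+ myeloblasts in the middle and MAC1- myeloblasts right in each panel. Unc13d lies at 2479 to 2658 in neutrophils, 1188 to 1324 in MAC1+ and 468 to 561 in MAC1- myeloblasts, and Stxbp6 at 38.1 to 62.9 in neutrophils, 38.8 to 45.0 in MAC1+ and 794 to 889.5 in MAC1- myeloblasts.

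The 8 R-SNAREs, which ride on vesicles and granules, went in different directions. In neutrophils against MAC1+ myeloblasts 2 were higher and 2 lower, where 20.0% of all genes were higher and 28.5% lower. In MAC1+ against MAC1- myeloblasts only Vamp5 was called, where 11.9% of all genes were. Vamp5 (myobrevin) read 3404, 3272 and 2702 in neutrophils, 2216, 2397 and 1973 in MAC1+ myeloblasts, and 540.0, 581 and 507 in MAC1- myeloblasts. It was 3.95-fold higher in MAC1+ than in MAC1- myeloblasts (1.98 ± 0.15, adjusted p = 4.72e-05). The step to neutrophils was smaller (0.50 ± 0.15, adjusted p = 0.0221) and was not called without neutrophil array 2 or MAC1+ array 1 or 3 (adjusted p from 0.0537 to 0.0798), nor with centred arrays (0.31, adjusted p = 0.138).

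Vamp8 (endobrevin), the R-SNARE of endosomes and of granule release in several blood cells and the genomic neighbour of Vamp5, read 5873, 4306 and 4033 in neutrophils, 5053, 5054 and 5123 in MAC1+ myeloblasts, and 3686, 3574 and 3477 in MAC1- myeloblasts. The MAC1- arrays lay below all others, but the difference between the myeloblasts (0.50 ± 0.16) missed the threshold (adjusted p = 0.0914, and 0.00489 without neutrophil array 1). Without that array neutrophils differed from MAC1+ myeloblasts by -0.28 (adjusted p = 0.0428). The promoters of this pair, printed above, hold different motif letters.

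Vamp7, the R-SNARE of lysosomes, was lower in neutrophils than in either myeloblast population. It read 179, 339 and 371 in neutrophils, 787, 875 and 870.0 in MAC1+ myeloblasts, and 1331, 1033 and 1095 in MAC1- myeloblasts. The difference was -1.52 ± 0.25 against MAC1+ (adjusted p = 0.000884) and -1.96 ± 0.25 against MAC1- myeloblasts (adjusted p = 0.000147), and its other probe set gave -1.78 and -2.29. The myeloblast populations did not overlap (-0.44 ± 0.25, adjusted p = 0.408, and 0.038 without neutrophil array 1).

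Vamp2, known from synapses and from the secondary and tertiary granules of human neutrophils, read 295, 683 and 742 in neutrophils, 229, 272 and 292 in MAC1+ myeloblasts, and 213, 211 and 234 in MAC1- myeloblasts. Neutrophil array 1 lay just above the MAC1+ arrays. The call against MAC1+ myeloblasts (0.98 ± 0.31, adjusted p = 0.0279) was lost without neutrophil array 2 or 3 or any MAC1+ array (adjusted p from 0.0526 to 0.0894). Vamp3 (cellubrevin), of recycling endosomes, read 9957, 7012 and 6010.4 in neutrophils, 9539, 8240.2 and 8723 in MAC1+ myeloblasts, and 8098, 9180 and 8418 in MAC1- myeloblasts. All populations overlapped, and without neutrophil array 1 the neutrophils differed by -0.44 (adjusted p = 0.018) from MAC1+ and by -0.40 (adjusted p = 0.0263) from MAC1- myeloblasts. A dimmer Vamp3 probe set was called higher in neutrophils in the fit of every probe set, by 0.86 ± 0.17 against MAC1+ (adjusted p = 0.00273) and by 0.93 ± 0.17 against MAC1- myeloblasts (adjusted p = 0.00147). Ykt6, a lipid-anchored R-SNARE of Golgi traffic, was called lower in neutrophils than in MAC1+ myeloblasts (-0.75 ± 0.27, adjusted p = 0.0479), and not without any single myeloblast array (adjusted p from 0.0677 to 0.114). Vamp1 and Vamp4 were called in no comparison on their brightest probe sets.

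Of the disassembly machinery, only Nsf was called on its brightest probe set. Nsf, the ATPase that pulls SNARE complexes apart, read 331, 1035 and 1082 in neutrophils, 2240, 2316 and 2248 in MAC1+ myeloblasts, and 2141, 2361 and 2417 in MAC1- myeloblasts. It was 3.10-fold lower in neutrophils than in MAC1+ myeloblasts (-1.63 ± 0.39, adjusted p = 0.00691), and the myeloblasts overlapped. Neutrophil array 1 differed by -1.629 from the mean of neutrophil arrays 2 and 3, so the size of this fold rests partly on that array. Against MAC1- myeloblasts Nsf differed by -1.65 ± 0.39 (adjusted p = 0.00571), and by -0.39 (adjusted p = 0.0665) with the mean of its probe sets. Its adaptor Napa (alpha-SNAP) read 1937, 1735 and 1562 in neutrophils, 2145, 2207 and 2027 in MAC1+ myeloblasts, and 2034, 2050 and 2036 in MAC1- myeloblasts. Neutrophils lay below both myeloblast populations on every array, with differences of -0.29 ± 0.13 (adjusted p = 0.109) and -0.23 ± 0.13 (adjusted p = 0.185), and of -0.37 (adjusted p = 0.0189) and -0.31 (adjusted p = 0.0365) without neutrophil array 1. The dimmer Napa probe set ran the other way and was called higher in neutrophils in the fit of every probe set, by 0.70 ± 0.20 against MAC1+ (adjusted p = 0.0181) and by 0.76 ± 0.20 against MAC1- myeloblasts (adjusted p = 0.0111). Napg (gamma-SNAP) read 1332 on neutrophil array 1 and 2458 and 2372 on the others. Without that array it differed by 0.42 (adjusted p = 0.00973) from MAC1+ and by 0.63 (adjusted p = 0.000961) from MAC1- myeloblasts.

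The probe sets of a gene did not always move together. Of the 38 members 30 have several, 94 in all, which can read different ends or forms of a transcript. When every probe set was fitted, 14 members called in neutrophils against MAC1+ myeloblasts on their brightest probe set had several, of which 10 had another called in the same direction and 3 had one called in the opposite direction (Nsf, Snap29, Stxbp5). For Nsf a dim probe set gave 1.17 ± 0.37 (adjusted p = 0.0309) where the brightest gave -1.63. For Snap29 another gave -1.21 ± 0.37 (adjusted p = 0.0254) where the brightest gave 0.47, and the mean of its probe sets gave -0.31 (adjusted p = 0.436). For Stxbp5 the dimmest gave 0.62 ± 0.20 (adjusted p = 0.0314) and another -1.32 ± 0.16 (adjusted p = 0.000122) around the brightest at -0.52. Vamp4, an R-SNARE of the Golgi, was not called on its brightest probe set (0.27 ± 0.13, adjusted p = 0.122), while the others gave 1.41 ± 0.25 and 1.20 ± 0.24 (adjusted p = 0.00139 and 0.00274). In this comparison 6 members had a called probe set other than an uncalled brightest one, Vamp4 with Napa, Snap91, Stx3, Stx6 and Vamp3. Against MAC1- myeloblasts these 6 and also Stxbp4 and Ykt6, 8 in all, had one. For Stx3 the called probe set gave -0.80 ± 0.21 in neutrophils against MAC1+ myeloblasts (adjusted p = 0.0126). It was very dim, at 1.7 to 6.3 in neutrophils and 12.9 to 20.9 in MAC1+ myeloblasts, so the size depends on the 16 added. For Ykt6 the called probe set gave 0.72 ± 0.23 in neutrophils against MAC1- myeloblasts (adjusted p = 0.0297), where the brightest gave -0.64.

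**Figure D4:**
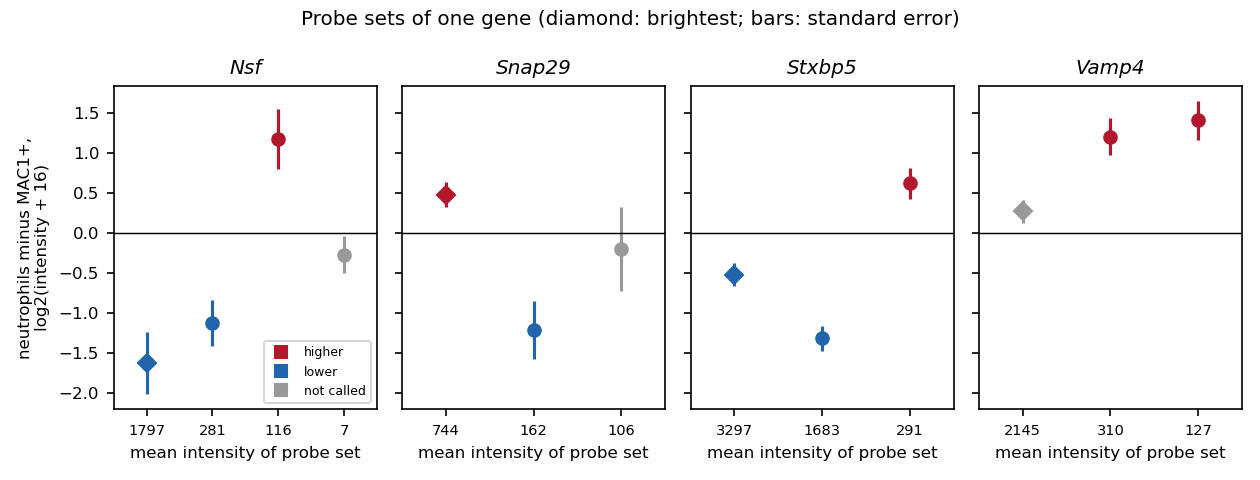
Difference in neutrophils minus MAC1+ myeloblasts for each probe set of 4 members, on the log2(intensity + 16) scale with the standard error as a bar; the horizontal axis names each probe set by its mean intensity over 9 arrays, brightest first (diamond). Red is called higher, blue called lower and grey not called. Nsf, Snap29 and Stxbp5 hold probe sets called in opposite directions, and the brightest of Vamp4 is the only 1 of its 3 that was not called.

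Other genes of the pathway were counted from fixed lists, to be read against the 20.0% of all genes called higher and 28.5% called lower in neutrophils against MAC1+ myeloblasts, and the 6.31% higher and 5.60% lower in MAC1+ against MAC1- myeloblasts. Of 9 exocyst subunits, which tether vesicles before SNAREs engage, 5 were higher and 1 lower in neutrophils against MAC1+ myeloblasts. Exoc6b was higher by 1.47 ± 0.13 (adjusted p = 1.49e-05) and Exoc4 lower (-1.61 ± 0.14, adjusted p = 9.99e-06). Of 19 secretory Rab GTPases and effectors measured, 8 were higher and 2 lower in that comparison, and 6 higher and 1 lower in MAC1+ against MAC1- myeloblasts. Rab27a, which binds both Unc13d and Sytl1, was higher in neutrophils than in MAC1+ myeloblasts (0.73 ± 0.16, adjusted p = 0.00435). Rab37 and Rab3d, Rabs of secretory granules, and Lyst, a regulator of granule size, were higher at both steps. Rab37 differed by 1.96 ± 0.29 in neutrophils against MAC1+ myeloblasts (adjusted p = 0.00043) and by 1.42 ± 0.29 in MAC1+ against MAC1- myeloblasts (adjusted p = 0.0129). For Rab3d these values were 0.90 ± 0.16 (adjusted p = 0.00125) in neutrophils against MAC1+ and 1.35 ± 0.16 (adjusted p = 0.000595) in MAC1+ against MAC1- myeloblasts. Lyst was higher by 0.96 ± 0.14 (adjusted p = 0.000455) in neutrophils against MAC1+ and by 0.88 ± 0.14 (adjusted p = 0.00402) in MAC1+ against MAC1- myeloblasts.

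The 12 other SNAREs and adaptors, mostly of the endoplasmic reticulum and Golgi, had 2 higher and 5 lower in neutrophils against MAC1+ myeloblasts, where 20.0% of all genes were higher and 28.5% lower. Bet1 (-3.16 ± 0.41, adjusted p = 0.000169) and Sec22a (-2.51 ± 0.26, adjusted p = 4.3e-05), SNAREs or SNARE relatives of early secretory traffic, were lower. Of 13 further SM proteins and endolysosomal tethers 2 were higher and 5 lower, with Scfd2 at -3.24 ± 0.21 (adjusted p = 1.79e-06) and Vps45, the SM partner of Stx16, at -2.46 ± 0.27 (adjusted p = 5.69e-05), while Vipas39 rose (1.27 ± 0.14, adjusted p = 5e-05). Of 17 calcium sensors and priming factors 2 were higher and 2 lower, among them Cplx1, a complexin that clamps SNARE complexes, which was higher (1.25 ± 0.14, adjusted p = 6.17e-05). Between the myeloblasts these 3 lists had 1, 0 and 1 genes called, all higher, namely Sec22c (1.69 ± 0.37, adjusted p = 0.0172) and Esyt2 (1.22 ± 0.25, adjusted p = 0.0136).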

How the data were processed

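The authors deposited linear intensity values for 45101 probe sets of an Affymetrix mouse array in 9 samples. Per the labels' protocols, column-purified RNA went through two-cycle amplification and biotin labelling, which favour 3′ ends of transcripts. Their summarisation, background correction and scaling are not given in the sources used here. Before any test the values were turned, without further normalization, into log2(intensity + 16). Probe sets naming 1 gene by the platform annotation (34945) were kept, and the one with the highest mean intensity stood for its gene.

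With limma 3.58.1 (R 4.3.3; lmFit and eBayes), differences were tested in a single model of the 3 populations over all 9 arrays, with Benjamini-Hochberg adjustment over 18193 genes and a threshold of 0.05. The procedure was tested on simulated data. Array values are given for 23 members: 15 with a known part in leukocyte exocytosis, and 14 by size, the 4 largest called differences in each direction of each comparison, with some in both. Pathway genes named are among the called ones with the largest differences, and Rab27a was added after its value was seen. Members and lists were chosen with earlier results of these data known.

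Alternatives were offsets of 1 and 64, quantile normalization, centring of arrays, leaving out genes under the 40th percentile, averaging all probe sets of a gene, leaving out probe sets that can bind several transcripts (suffix x or s), a replicate block, a fit of only the 2 populations compared, leaving out each array, and, chosen after seeing the data, every probe set on its own. Promoter windows came from RefSeq tables of GRCm38.p6.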

Additional observations from a re-analysis of the deposited data

How the results depend on the processing

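The count of members called in MAC1+ against MAC1- myeloblasts was 10, and 6 with the replicate block. Leaving out 1 array gave 6 to 15 there, 12 to 25 in neutrophils against MAC1+ myeloblasts (18 with all arrays) and 20 to 29 in neutrophils against MAC1- myeloblasts (21 with all arrays). The replicate block left the last 2 counts at 18 and 21. The shares of all genes called moved as well, from 11.9%, 48.5% and 53% to 9.14%, 46.9% and 51.4% with the block. Leaving out 1 array gave 7.29% to 23%, 41.1% to 54.2% and 45.9% to 58.6% of all genes, in the same order. Correlations between the deviations of same-numbered arrays ran from -0.304 to 0.128, and 1 of 9 was over 0.1. With so few arrays per population, these values cannot decide whether same-numbered samples share more than a number. The labels do not state it. With the block, Stx11, Stx17, Stx1a and Stxbp2 lost their calls between the myeloblasts (adjusted p = 0.0534, 0.0668, 0.0607 and 0.0774). Testing every probe set on its own gave 9, 23 and 29 members with any called probe set, for which no share of all genes is given. There the calls of Nsf, Snap29 and Stxbp5 in neutrophils against MAC1+ myeloblasts had a probe set called the other way (1.17, -1.21 and 0.62). Of 1239 values of 69 named differences under the other 18 alternatives, 1106 kept their direction and side of the threshold, 64 fell below it and 41 passed it. The remaining 28 changed sign, 0 of them called in either fit. Between MAC1+ and MAC1- myeloblasts these were Napa (-0.025) and Vamp3 (-0.01) with quantile normalization, Nsf (0.012) with centred arrays, Nsf (0.071), Snap25 (-0.043), Stxbp3 (-0.121) and Vamp3 (-0.019) with the mean of probe sets, and Vamp3 (-0.071) without probe sets marked _x_at or _s_at. In neutrophils against MAC1+ myeloblasts they were Stx3 (0.118), Stx4a (0.078), Sytl1 (0.15), Vamp3 (0.085) and Vamp8 (0.059) with quantile normalization, Napa (0.208) and Vamp3 (0.04) with the mean of probe sets, and Vamp3 (0.092) without the marked probe sets. In neutrophils against MAC1- myeloblasts they were Vamp3 (0.075) with quantile normalization, Napa (0.265) and Vamp3 (0.021) with the mean, and Vamp3 (0.021) without the marked probe sets. Leaving out 1 array gave -0.075 to 0.012 for Nsf, -0.669 to 0.035 for Stx12, -0.09 to 0.003 for Stx4a and -0.013 to 0.095 for Vamp3 between the myeloblasts, and -0.712 to 0.1 for Stx3, -0.281 to 0.042 for Stx4a and -0.33 to 0.083 for Sytl1 in neutrophils against MAC1+ myeloblasts. The cause of these changes was not tested. The fit shares 1 estimate of spread, which neutrophil array 1 widens: in the fit without it, unchanged differences between the myeloblasts passed the threshold for Vamp8, Snap23, Stx7, Stx3 and Vamp7. Dim members limit what can be read: Snap91, Stx19 and Stxbp4 lay under 100 on every array.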

Other observations

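On its brightest probe set Stx12 shared the order of its MAC1+ arrays with a few genes that were picked after their values were seen. That probe set read 3956, 2482 and 1480 on MAC1+ arrays 1, 2 and 3. The dimmer Stx12 probe set read 357.3, 318.4 and 417.5 there and did not share the order. Vps8, a subunit of an endosomal tether, read 2015, 1089 and 495. Rab3a, a Rab of regulated secretion, read 7125, 2881 and 717, and Ccr2, a chemokine receptor of monocytes, read 2426, 1183 and 310 on the same arrays. On the MAC1- arrays the same genes read 2737 to 3695 for Stx12, 1324 to 2554 for Vps8, 2401 to 5294 for Rab3a and 2718 to 4074 for Ccr2. Of the 9 monocyte and macrophage markers measured, Ccr2 alone fell in the order of Stx12 over the MAC1+ arrays. Csf1r, Ly86, Cd68, Klf4 and Irf8 rose over them, Irf8 from 432 to 549 and 1047.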
